A study of Arabidopsis thaliana with 12 samples.

Results

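AT1G11820, AT4G38040 and CSLA01 are 3 Arabidopsis thaliana genes of cell wall enzymes: a glycosyl hydrolase, a member of the exostosin family and a cellulose synthase-like protein. They are 3 of the 692 genes that had a probe of their own among the 3439 probes of the array, and no probe shared with other genes lists any of them. The genes were picked from an earlier reading of the same comparison, pete1 against the wild type (WT), so their levels and differences are described here with no test. Total RNA was hybridised in 12 samples, 6 of the pete1 mutant, which has lost an isoform of plastocyanin, and 6 of WT. Both genotypes are in ecotype Columbia 0 and were raised on MS, a mineral medium in wide use for plant culture. Samples carry the numbers 1 to 6 in each genotype. The labels give no tissue, no plant age, no origin of the mutant allele, and nothing on whether the numbers are separate plants, so the spread between samples may be technical.

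The plant cell wall is a mesh of cellulose held together by hemicelluloses and pectins. Glycosyl hydrolases cut the bonds between sugars and take part in loosening and remodelling that mesh. Proteins of the exostosin family carry a glycosyltransferase domain first described in the animal exostosins, which build heparan sulfate, and their plant relatives add sugars to wall polysaccharides in the Golgi. Proteins of the cellulose synthase-like A group build mannan and glucomannan backbones, a class of hemicellulose. Plastocyanin itself is a copper protein of the thylakoid lumen that carries electrons to photosystem I.

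The deposited intensities are linear values whose mean lay between 0.917 and 1.01 in the pete1 samples and between 1.05 and 1.07 in the WT samples. The sample medians did not overlap between the genotypes, at 0.279 to 0.331 in pete1 and 0.485 to 0.627 in WT, so the middle of the intensity range lay lower in pete1. For this reason each probe is also given as its percentile, the share of the sample's 3439 probes with a lower intensity, which does not depend on how a sample was scaled. Between 244 and 293 probes were listed at 0 in a pete1 sample, and between 170 and 206 in a WT sample. Samples of consecutive number (1 and 2, 3 and 4, 5 and 6) were closer to each other, with Spearman correlations of 0.955 to 0.980, than other samples of the same genotype, at 0.849 to 0.901. A genotype may therefore hold fewer than 6 independent samples, and means of the 3 consecutive pairs are given beside the 6 values. Of 8 leaf markers only LHCB1.5, of the photosystem II antenna, and PRK, of the Calvin cycle, had a probe of their own, and none of 7 root or 4 flower markers did, so the tissue could not be checked further. LHCB1.5 lay between 25.9 and 35.3 in pete1 and between 6.91 and 12.4 in WT. PRK lay between 0.833 and 1.48 in pete1 and between 0.431 and 0.737 in WT. Whether the difference in these leaf transcripts has a part in the values of the wall genes was not tested.

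The glycosyl hydrolase gene AT1G11820 was listed at 0 in every pete1 sample and above 0 in every WT sample. Its intensity was 0 in pete1 samples 1, 2, 3, 4, 5 and 6. In WT it was 0.243 in sample 1, 0.248 in sample 2, 0.0902 in sample 3, 0.136 in sample 4, 0.0883 in sample 5 and 0.109 in sample 6. The groups did not overlap, and WT samples 1 and 2 stood above the other 4. No fold change can be given against a group listed at 0. In bulk RNA, here and for the other genes, fewer cells that make a transcript and less transcript per cell cannot be told apart. In WT the mean was 0.153 ± 0.0742 (SD, n = 6), and the means of consecutive samples were 0.246, 0.113 and 0.0989.

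The probe of AT1G11820 was dim in both genotypes. A pete1 sample put it among the probes tied at 0, at a percentile of 3.55 to 4.26, which is the middle of that tie. A WT sample put it at a percentile of 9.32 to 18.9, with a median of 12.3. The dimmest 10% of probes lay below 0.0187 to 0.0375 in the pete1 samples and below 0.0861 to 0.125 in the WT samples. The smallest intensities above 0 were far lower, 4.74e-05 to 0.000527 in pete1 and 0.00035 to 0.00187 in WT. How the authors arrived at a 0 is not given in the sources used here, so a 0 marks a listed value and not the absence of the transcript. Of all 3439 probes, 7 (0.204%) were at 0 in all 6 pete1 samples and above 0 in all 6 WT samples, and AT1G11820 was the one with a gene of its own. No probe showed the opposite pattern, and 80 probes were at 0 in all 12 samples.

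The exostosin family gene AT4G38040 was lower in pete1 than in WT in every sample, by intensity and by percentile. Its intensity in pete1 was 0.0555 at the lowest, 0.186 at the median and 0.338 at the highest. In WT it was 0.587 at the lowest, 0.815 at the median and 0.954 at the highest. The highest pete1 sample, number 5, lay below the lowest WT sample, number 4. The means were 0.183 ± 0.10 in pete1 and 0.779 ± 0.159 in WT (SD, n = 6 each). No sample of either genotype was at 0. All pete1 intensities lay below all WT intensities in 32.8% of the 3439 probes, AT1G11820 and AT4G38040 among them.

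On the percentile scale AT4G38040 lay between 13.3 and 51.5 in pete1, with a median of 32.0, and between 56.8 and 75.4 in WT, with a median of 62.4. The groups again did not overlap, as was the case for 6.05% of all probes in this direction. With no overlap, the percentile was necessarily lower in pete1 at each of the 6 equal numbers. The extremes were differences of -19.2 percentage points at number 3 and -45.2 at number 2. The pete1 intensity was 0.0740 to 0.376 times that of the WT sample with the same number. After quantile normalisation, which gives all samples the same distribution, the log2 difference was -1.44, against -2.28 in the intensities as deposited. Over all probes the median log2 difference was -0.01 after normalisation and -0.73 as deposited.

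Within pete1 the level of AT4G38040 differed between the consecutive pairs of numbers. The mean intensity of pete1 samples was 0.0819 for numbers 1 and 2, 0.187 for numbers 3 and 4, and 0.280 for numbers 5 and 6. The corresponding WT means were 0.815, 0.593 and 0.930. The pair with the lowest pete1 level was therefore not the pair with the lowest WT level. Within a pair the 2 samples differed by up to 0.115 in pete1 and up to 0.128 in WT.

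**Figure D1:**
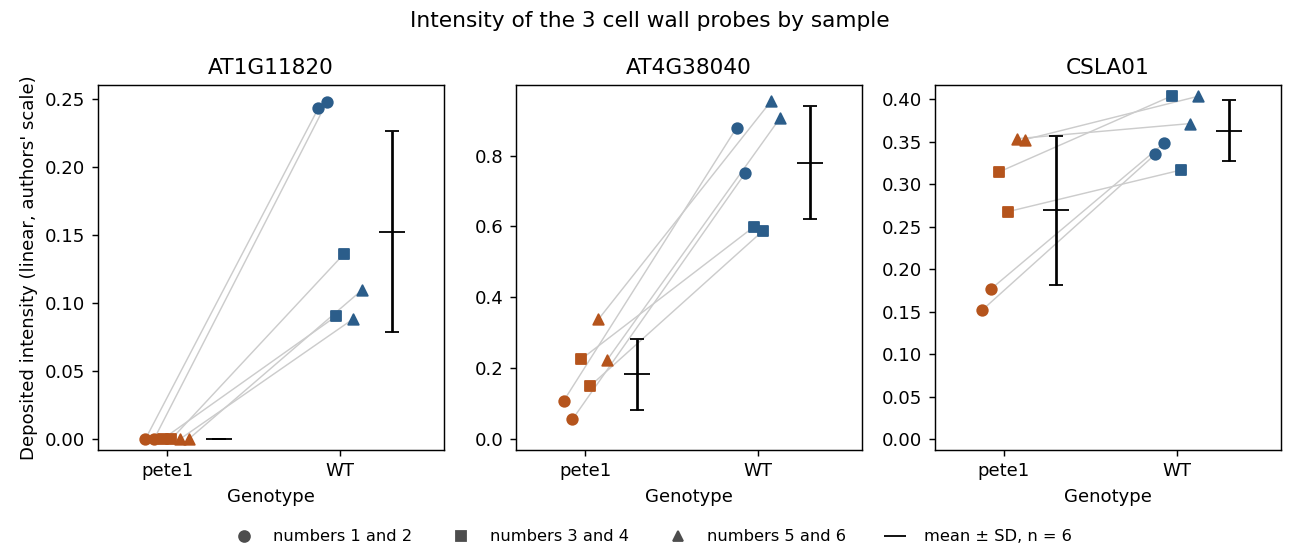
Deposited intensity (linear, the authors' scale) of the probes of AT1G11820, AT4G38040 and CSLA01 in the 6 pete1 and 6 WT samples. Points are samples, marker shapes give consecutive numbers, grey lines join equal numbers, and black bars are mean ± SD (n = 6). AT1G11820 is at 0 in all pete1 samples, AT4G38040 lies at 0.0555 to 0.338 in pete1 and 0.587 to 0.954 in WT, and the CSLA01 groups overlap.

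The cellulose synthase-like gene CSLA01 (AT4G16590) had a lower intensity in pete1 but a higher place among the probes. Its intensity in pete1 was 0.152 at the lowest, 0.291 at the median and 0.354 at the highest. In WT it was 0.317 at the lowest, 0.360 at the median and 0.404 at the highest. Pete1 samples 5 and 6, at 0.354 and 0.353, lay above WT samples 1, 2 and 4, so the groups overlapped. The means were 0.270 ± 0.0878 in pete1 and 0.363 ± 0.0363 in WT (SD, n = 6 each), and no sample was at 0. At each of the 6 numbers the pete1 intensity was the lower one, at 0.453 to 0.952 times the WT value, a direction found at 6 of 6 numbers in 52.6% of all probes.

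By percentile CSLA01 lay between 31.8 and 53.1 in pete1, with a median of 47.3, and between 26.3 and 41.8 in WT, with a median of 34.1. These ranges overlapped too. At equal numbers the percentile was higher in pete1 in 6 of 6 cases, by 5.50 to 17.7 percentage points, as it was for 19.5% of all probes. A lower intensity together with a higher percentile at all 6 numbers was found for 65 probes (1.89%). The log2 difference of CSLA01 was accordingly -0.50 in the intensities as deposited, 0.44 after quantile normalisation and 0.31 when each sample was centred on its median. Median centring moved the median log2 difference of all probes to 0.08. The direction for CSLA01 thus changed with the scaling, whereas AT4G38040 was lower in pete1 under each of these scalings.

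**Figure D2:**
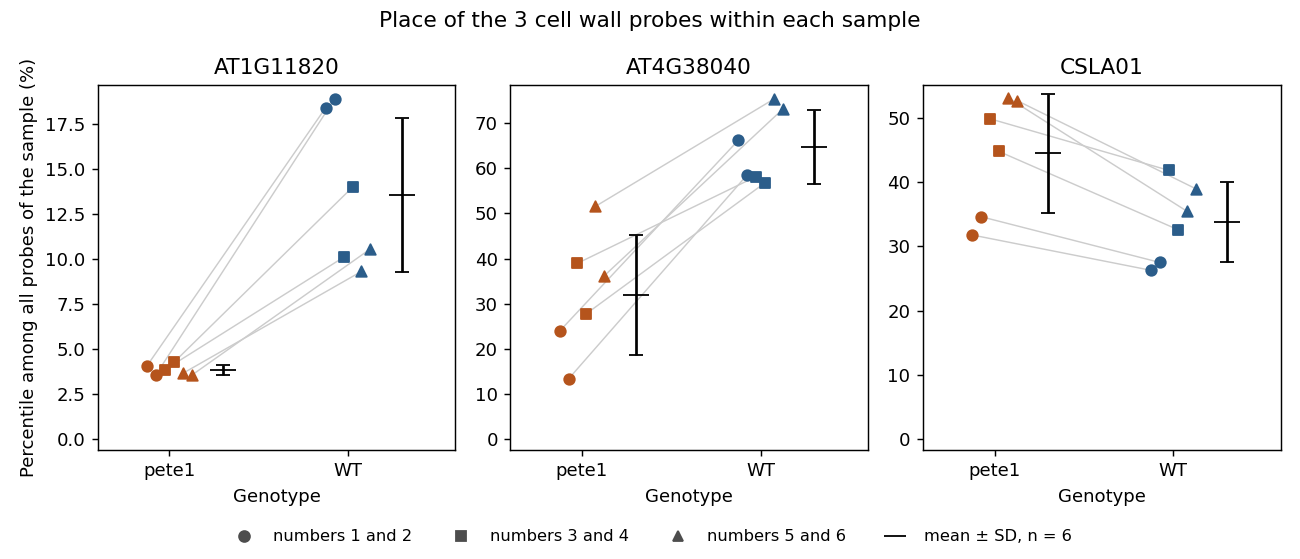
Percentile of the same 3 probes among all 3439 probes of each sample (%, vertical axis), drawn as in the plot of intensities with pete1 left of WT. AT4G38040 lies at 13.3 to 51.5 in pete1 and 56.8 to 75.4 in WT, while CSLA01 is higher in pete1 at each number although the ranges overlap.

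CSLA01 also followed the consecutive numbers in pete1. The mean intensity of pete1 samples was 0.164 for numbers 1 and 2, 0.291 for numbers 3 and 4, and 0.353 for numbers 5 and 6, against 0.342, 0.361 and 0.388 in WT. In pete1 AT4G38040 and CSLA01 therefore had the same order of pairs, with numbers 1 and 2 lowest and 5 and 6 highest. CSLA01 had this order in WT too, and how many of all probes share it was not counted. The difference in CSLA01 percentile was smallest for numbers 1 and 2, at 5.50 and 7.12 percentage points, and largest for number 5, at 17.7. What the pairs of numbers stand for is not stated in the labels.

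**Figure D3:**
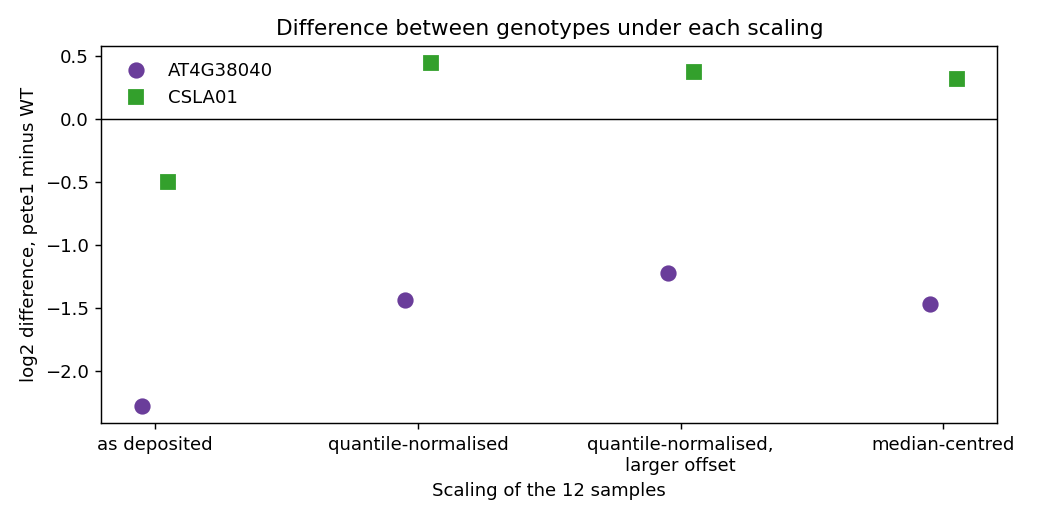
Log2 difference, pete1 minus WT (vertical axis), of AT4G38040 and CSLA01 under each scaling of the 12 samples (horizontal axis); each point is a difference of 2 group means. AT4G38040 stays between -2.28 and -1.22, whereas CSLA01 is at -0.50 as deposited and between 0.31 and 0.44 under the others.

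The names in the annotation give 4 further cell wall genes with a probe of their own, GH9B8 (AT2G32990), GH9B11 (AT2G44560), GH9B12 (AT2G44570) and GH9B16 (AT4G38990). They belong to glycosyl hydrolase family 9, the plant endoglucanases that cut glucan chains such as those of cellulose. Only gene symbols and synonyms were searched, which did not find AT1G11820 or AT4G38040, so other wall genes on the array may have been missed. GH9B11 and GH9B12 are neighbours, with no protein-coding gene between them, and whether the probes of these relatives bind each other's transcripts was not checked. By limma over all 3439 probes on quantile-normalised values, none of these 4 passed an adjusted p of 0.05, and none had an unadjusted p under 0.05. Over all probes 10.7% passed as higher and 11.0% as lower in pete1, and 1198 of the 3439 had an unadjusted limma p under 0.05. This fit takes the 12 samples as independent. With consecutive numbers as a random block 163 probes were called, and with consecutive samples averaged 7, all lower in pete1. The median log2 difference of the 4 genes was -0.02 after normalisation and -0.88 as deposited, beside -0.01 and -0.73 for all probes.

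GH9B8 was higher in pete1 at each of the 6 numbers and varied more between pairs of numbers than between genotypes. The pete1 intensities were 1.32 and 1.0 in samples 1 and 2, 0.512 and 0.529 in samples 3 and 4, and 0.133 and 0.161 in samples 5 and 6. The WT intensities were 0.475 and 0.493, then 0.466 and 0.464, and then 0.130 and 0.157 for the same numbers. The groups overlapped, and numbers 5 and 6 were low in both genotypes. At equal numbers the pete1 intensity was 2.78 and 2.03 times that of WT in samples 1 and 2, and between 1.02 and 1.14 times in the other 4. By percentile the difference ran from 11.3 to 48.8 percentage points, all higher in pete1, as was found at 6 of 6 numbers for 19.5% of all probes. The share of all probes with a higher intensity at all 6 numbers was not counted. The log2 difference of GH9B8 was 1.29 ± 0.64 (SE) and missed the threshold (limma adjusted p = 0.173). Without 1 sample it ran from 0.99 to 1.61 and never passed. The unadjusted limma p was 0.0251 without pete1 sample 5 and 0.0353 without pete1 sample 6. GH9B8 passed once equal numbers were compared through a replicate block (SE 0.23, limma adjusted p = 0.0147). That fit called 743 of all 3439 probes, 380 of them as higher in pete1. In the intensities as deposited the log2 difference of GH9B8 was 0.48 ± 0.63 (SE, limma adjusted p = 0.540). The block takes the 6 numbers as independent. In a further fit, chosen after seeing the data, that averaged consecutive samples and blocked on their pair, GH9B8 did not pass (limma adjusted p = 0.258).

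The other 3 endoglucanase genes had lower intensities in pete1 at each number, as did 52.6% of all probes, but no common direction by percentile. GH9B11 averaged 0.386 ± 0.221 in pete1 and 0.594 ± 0.257 in WT (SD, n = 6 each), with a percentile higher in pete1 at 3 numbers and lower at 3. By percentile it was highest in numbers 1 and 2 of both genotypes, with means of 74.6 in pete1 and 66.9 in WT, and lowest in numbers 5 and 6, at 32.7 in pete1 and 31.6 in WT. GH9B12 averaged 0.135 ± 0.0858 in pete1 and 0.304 ± 0.116 in WT, and GH9B16 averaged 0.199 ± 0.0573 in pete1 and 0.416 ± 0.111 in WT. Their percentiles were higher in pete1 at 2 numbers and lower at 4. The log2 differences after normalisation were 0.06 ± 0.39 for GH9B11, -0.22 ± 0.33 for GH9B12 and -0.11 ± 0.29 for GH9B16 (SE), and none of these 3 passed in any fit that left out 1 sample. Over those fits GH9B11 ranged from -0.14 to 0.24, GH9B12 from -0.48 (without pete1 sample 2) to -0.07 and GH9B16 from -0.31 (without WT sample 2) to 0.0022. In the intensities as deposited GH9B12 and GH9B16 passed as lower (log2 differences of -1.29 and -1.07, limma adjusted p = 0.0136 and 0.00451), in a fit where 1746 of all 3439 probes were called lower. That fit takes the 6 samples of a genotype as independent, and no fit as deposited averaged or blocked consecutive samples.

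**Figure D4:**
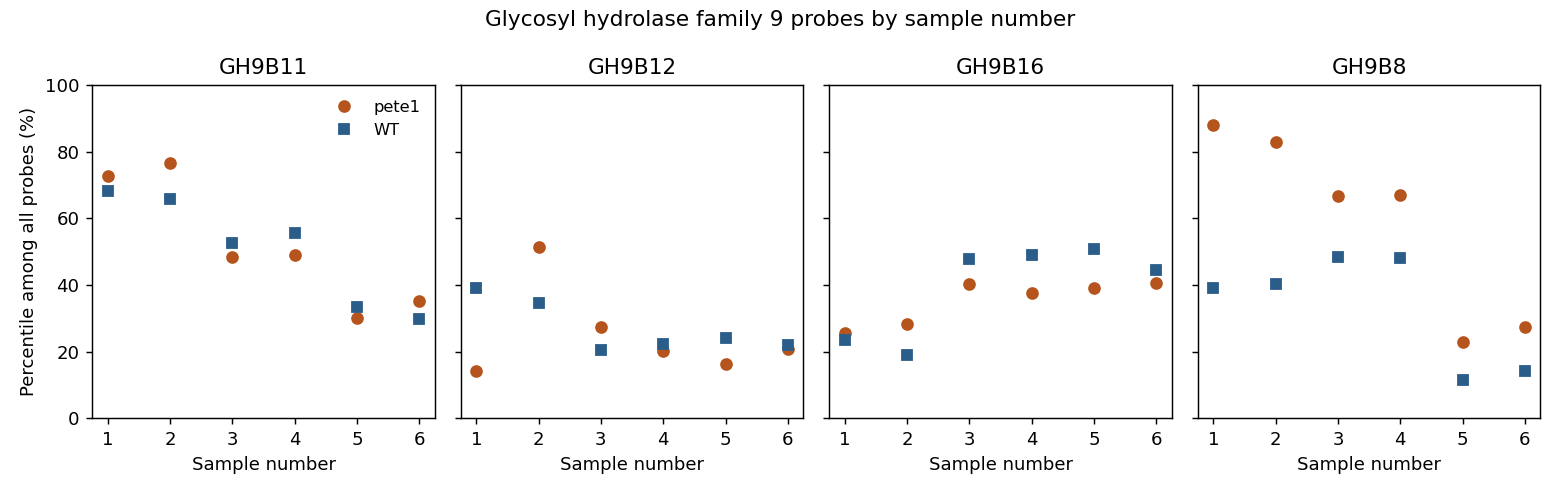
Percentile among all probes (%, vertical axis) of the 4 glycosyl hydrolase family 9 probes against the sample number, with pete1 as circles and WT as squares. GH9B8 is higher in pete1 at each number and low in numbers 5 and 6 of both genotypes, and GH9B11 differs between the 3 pairs of consecutive numbers in both genotypes.

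The patterns of the 3 genes over the 12 samples were also set against those of 645 other genes with a probe of their own, by Spearman correlation of percentiles. These values are descriptions over samples that share their genotype difference and their pairs of numbers. AT4G38040 was most like AT1G55440 (rho = 0.965), AT3G23940 and AT5G34870 (0.958 each). AT1G55440, for example, lay at percentiles of 80.4 to 88.0 in pete1 and 88.6 to 94.2 in WT. AT1G11820 was most like AT4G08630 (0.930), AT2G32640 (0.916) and AT4G00870 (0.904). Among pete1 samples the percentile of AT1G11820 follows only the number of probes tied at 0. That order enters rho beside WT and the gap between genotypes. The genes named as most like AT1G11820 therefore depend in part on counts of zeros. AT4G08630 averaged 0.175 ± 0.0489 in pete1 and 0.663 ± 0.204 in WT (SD, n = 6 each), and was above 0 in every sample.

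CSLA01 was most like AT4G39760 (rho = 0.928), CHL (AT3G47860, a chloroplast lipocalin) and AT4G13200 (0.916 each). CHL likewise had the lower mean intensity in pete1 together with the higher top percentile, averaging 0.171 ± 0.0707 in pete1 and 0.234 ± 0.0237 in WT at percentiles of 17.6 to 41.7 in pete1 and 16.5 to 26.9 in WT. AT4G39760 was an abundant probe and differed in intensity the other way, at 6.82 ± 2.11 in pete1 and 3.74 ± 1.32 in WT (SD, n = 6 each). None of the 4 endoglucanase genes was among the 3 genes closest to AT1G11820, AT4G38040 or CSLA01. With 4 genes among the 645 compared and 3 places each, this absence was likely beforehand and tells nothing about the wall genes.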

How the data were processed

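The deposited intensities, 1 per probe and sample, are on a linear scale taken from the values themselves; which reader, background correction and scaling the authors used is not stated in the labels. Probes were named from the platform annotation, updated through gene identifiers to the RefSeq table of TAIR10.1 (690 of 692 single-gene probes matched; 870 probes with several genes and 1877 with none were not named). The gene order of GH9B11 and GH9B12 was taken from that RefSeq table, and no coordinates are given. Members and lists were chosen with earlier results of these data known. The cell wall list came from keywords in gene names, and CSLA01, a member that matched them, was left out of its counts of calls.

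For the fits, the smallest positive intensity (4.74e-05) was added, log2 taken and samples quantile normalised. Pete1 was compared with WT in limma 3.58.1 (statmod 1.5.0, R 4.3.3) by a two-sided moderated test per probe, adjusted by the Benjamini-Hochberg method across the 3439 probes (threshold 0.05). Equal numbers in the titles were taken as pairs and blocked on in an alternative fit. Deviations from group means correlated at 0.221 to 0.452 in all 6 pairs of equal number. Unequal numbers were not compared in this way, so these values cannot tell pairing by number from pairing by consecutive numbers. Named genes were the 3 members, the cell wall list and, for each member, the 3 most like single-gene probes above 0 in at least 6 samples. The number of arrays limits the precision.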

Additional observations from a re-analysis of the deposited data

Results flagged for a closer look

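Of 27 groups of 6 values examined for a sample far from the others (7 genes, 2 genotypes, intensity and percentile), 1 was picked out, and chance picks out about 5% of groups of independent values. GH9B12 in pete1 sample 2 had a percentile of 51.4, with the other pete1 samples between 14.3 and 27.3. Its consecutive sample, pete1 1, had the lowest of the 6, 14.3. The group of AT1G11820 intensities in pete1, all at 0, could not be examined.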

How the results depend on the processing

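The log2 difference of CSLA01, 0.44 after quantile normalisation, turned to -0.50 as deposited, and that of AT4G38040 moved from -1.44 to -2.28. Both kept their sign with a larger offset (0.0514), median centring and dim probes left out. In averages and with the replicate block they stayed at 0.44 and -1.44, since neither step can change a difference of group means here. Without 1 sample they ranged from 0.37 to 0.54 and from -1.61 to -1.16. Percentile differences (pete1 minus WT) ranged without 1 sample from -10.6 to -8.66 for AT1G11820 (-9.73 with all), from -36.7 to -29.0 for AT4G38040 and from 8.96 to 13.2 for CSLA01. Among probes above 0 in every sample, that of AT1G11820 was -4.68. Of the 4 endoglucanase genes, limma called 0 (0 at an unadjusted p under 0.05) and 0 without any 1 sample. It called 2 as deposited (GH9B12 and GH9B16) and 1 with the replicate block (GH9B8). In averages it called 0, and 0 with consecutive numbers as a random block. With averages and the pair as a replicate block it called 0 (1 at an unadjusted p under 0.05). The 746 probes called became 1861 as deposited, 743 with the replicate block and 163 with consecutive numbers as a random block. In averages 7 were called (563 at an unadjusted limma p under 0.05). Averages with the pair as a replicate block, chosen after seeing the data, gave 0 (591 likewise). Without 1 sample 550 to 722 were called. The cause of these changes was not tested.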
